A study of Mus musculus with 12 samples.

Results

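The erythropoietin receptor gene Epor and 9 genes of cytokine signalling through Janus kinases and STAT factors were followed in G1E-ER4 cells. They were the genes of the count table whose symbol was Epor, Il4ra, Jak2, Stat5a, Stat5b, Stat3, Cish, Socs1, Socs3 or Pim1, which made 10 of its 17210 genes, and all 10 passed the filter on low counts. The question was how these genes move when GATA1 is switched on, when active SREBP2 is added, and when both are done. G1E-ER4 is a mouse erythroid progenitor line without GATA1 of its own that carries a GATA1 fusion with the hormone-binding part of an estrogen receptor, so that β-estradiol (EST) turns on GATA1 activity. SREBP2 is the transcription factor that drives cholesterol synthesis genes, and the construct held residues 1 to 468 of it, the active fragment.

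All cells were of strain C57BL/6J by the labels, were grown by the study's methods in medium with stem cell factor and erythropoietin, and were transduced for 24 h. The Vector group received the empty retrovirus and then vehicle (its labels say untreated), Vector+EST the empty retrovirus and EST for 6 h, SREBP2 the active fragment and then vehicle, and SREBP2+EST the fragment and EST for 6 h. The labels give EST doses of 500 nM with the samples and 200 nM with the series. Each of the 4 groups had 3 libraries, named here by the numbers in the count table's header. The line is a single one, and the sources used here do not say whether transduced cells were selected. A general remark on independent experiments stands with the study's display of these transcriptomes, but no source says of the 3 libraries of a group whether they were separate cultures, so p-values measure the spread between these libraries, which may be technical.

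The 12 libraries held 18700959 to 19152281 estimated counts. The labels give the cell type as embryonic stem cells. Of 8 embryonic stem cell markers, the 5 that were measured summed to at most 0.65 CPM (counts scaled to one library size, with TMM factors that allow for differences in RNA composition) in any library, and 10 erythroid markers, Epor among them, summed to between 6310 and 10100 CPM, so the data go against that label. Srebf2, which encodes SREBP2, averaged 360.9 ± 8.32 CPM in Vector (SD, n = 3), 441.5 ± 13.0 in Vector+EST, 816.2 ± 20.1 in SREBP2 and 808.1 ± 6.66 in SREBP2+EST. The study's supplement measured the added SREBP2 as the human gene, while these are counts of mouse Srebf2. How many of them come from the construct was not tested. On the first principal component, which held 65.3% of the variance, library 1 of each SREBP2 group lay nearer to libraries of the opposite SREBP2 group than to those of its own, though over all genes it was slightly closer to its own group. On that component SREBP2 library 1 lay at 29.65 and the other two libraries of its group at 22.52 and 22.41, while SREBP2+EST library 1 lay at 26.09 and the others of its group at 31.01 and 31.2. The comparison of EST in SREBP2 cells turned on these libraries, with 0 genes called with them and 698 higher and 869 lower without them. Results that rest on them are therefore given both ways, except where the text says otherwise. Vector+EST library 5 held 37.3 CPM of 11 fibroblast markers against 6.54 and 6.7 CPM in the other libraries of its group, 21.2 to 22.3 in Vector, 10.4 to 17.4 in SREBP2 and 24.1 to 41.3 in SREBP2+EST. The markers of that list did not all move together. Col1a1 was at 0.05425 CPM or less in 8 libraries and at 6.5 to 13.79 CPM in Vector+EST library 5 and the SREBP2+EST libraries. Col3a1, Fn1, Mmp2 and Igfbp7 were higher in the same 4 libraries. They were there at 0.4334 to 1.751, 2.154 to 6.315, 1.131 to 3.184 and 2.208 to 4.956 CPM. In the other 8 they were at most at 0.05131, 0.1546, 0.05425 and 0.2048 CPM, in that order. In those 4 libraries Thy1 was at 0.05385 CPM or less, against 0.868 to 2.871 CPM in the other 8. Col1a2 made up most of the sum in Vector (18.88 to 19.88 CPM, and 3.867 to 7.973 elsewhere), and Pdgfrb was at 4.609 to 9.155 CPM in the 6 SREBP2 libraries and at most 0.1592 in the rest. In bulk RNA, fewer cells of a type and less RNA per cell cannot be told apart.

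Erythropoietin binds its receptor on erythroid progenitors and activates the kinase JAK2, which is bound to the receptor's inner part. JAK2 phosphorylates STAT5A and STAT5B, which enter the nucleus and turn on survival and feedback genes such as Pim1, Cish and Socs family genes, whose products in turn damp the receptor and the kinase. STAT3 and the interleukin-4 receptor chain IL-4Rα belong to neighbouring branches of the same kind of pathway.

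Promoter sequences were searched for the letters AGATAA, the motif of GATA factors, TTCNNNGAA, the motif of STAT factors, and TCACNCCAC, a sterol regulatory element, on both strands, because STAT5, GATA1 and SREBP2 are the factors that the pathway and the treatments bear on. The RefSeq table for GRCm38.p6 held 13 windows for the 10 genes, each from 250 bases before a transcript start to 50 bases from it on. In 6 windows that start was the outer end of the gene as given here, and in 7 it lay inside the gene, by 54 bases in Stat3, 305 and 1133 in Stat5a, 970 in Socs3, 2300 in the second window of Pim1, and 8423 and 36434 in Stat5b. Only 3 windows, those of Epor, Cish and Socs3, held any of the 3 motifs. The 4 matches are shown with 10 bases on either side, in the direction of the gene and with the motif in capitals.
Epor, GATA motif read on the other strand: tggctgtagcTTATCTgtccccagcc
Cish, first STAT motif: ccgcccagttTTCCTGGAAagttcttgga
Cish, second STAT motif: tcctggaaagTTCTTGGAAatctgtcaaa
Socs3, STAT motif: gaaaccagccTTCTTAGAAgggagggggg

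The Epor motif began 54 bases before the gene start, and its stretch lay at chr9:21963615-21963640 on the minus strand. In Cish the motifs began at the gene start and 11 bases after it, in stretches at chr9:107296649-107296677 and chr9:107296660-107296688 on the plus strand. The Socs3 motif began 154 bases before the transcript start, in a stretch at chr11:117969502-117969530 on the minus strand, inside the span of the gene. Of 32851 promoter windows in the table, 8.3% held the STAT motif, 11.18% the GATA motif and 1.24% the sterol regulatory element. Among the 17128 windows of genes in the count table the shares were 7.17%, 7.93% and 1.15%. All positions, of genes too, are on GRCm38.p6. A match is a description of letters only, and the files hold no binding data.

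EST in Vector cells changed all 10 genes. Jak2, Stat5b and Stat3 rose, while Epor, Il4ra, Stat5a, Cish, Socs1, Socs3 and Pim1 fell (edgeR quasi-likelihood test, Benjamini-Hochberg adjusted p under 0.05 over 11177 genes). So 3 of 10 rose, beside 35.2% of all genes tested, and 7 of 10 fell, beside 35.5%. Their median log2 fold change was -1.06, beside 0.01 for all genes. Active SREBP2 without EST also raised 3, beside 37.7% of all genes, and lowered 7, beside 33.8%, with a median of -1.07 beside 0.03. The Vector libraries lay below all 9 others for the 3 genes that rose, as in 31.1% of all genes tested, and above all 9 for the 7 that fell, as in 30.8%. Both comparisons use the same 3 Vector libraries, so their values are given side by side and are not independent of each other.

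When EST was already present, SREBP2 raised 4 of the 10 genes, Il4ra, Jak2, Stat3 and Cish, beside 14.0% of all genes, and lowered 0, beside 7.94%. For these 4 genes all 6 libraries with SREBP2 lay above the 3 Vector+EST libraries, as in 15.5% of all genes. With scaling by library totals only, the share of higher genes among all calls of that comparison was 42.2% in place of 63.7%. In SREBP2 cells, EST changed 0 of the 10 genes, beside 0.0% of all genes. The lowest adjusted p of the 10 there was 0.919, and Stat5b alone had an unadjusted p under 0.05 (0.04063). Over all genes, 506 had an unadjusted p under 0.05 in that comparison, 4.53% of those tested, and DESeq2 called 12. Without library 1 of both SREBP2 groups the same comparison called 6.18% of all genes higher and 7.7% lower, and among them Stat5b was higher (log2 fold change 0.14, adjusted p = 0.01471) and Epor lower (-0.36, adjusted p = 0.004164).

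Whether EST acted differently in cells with and without added SREBP2 was tested as an interaction, the EST effect with SREBP2 minus that without. It was positive for 7 genes, beside 29.8% of all genes, and negative for 2, beside 29.2%. Jak2 did not pass, at -0.15 ± 0.08 (SE, adjusted p = 0.1093), and gave -0.19 with an adjusted p of 0.04912 without SREBP2 library 5. A direct comparison of SREBP2 without EST against Vector+EST does not take the Vector mean, though the Vector libraries enter its shared fit. It found 4 genes higher with SREBP2, namely Il4ra, Jak2, Stat3 and Cish, beside 14.4% of all genes, and 0 lower, beside 8.96%. It shares the Vector+EST libraries with the comparison of SREBP2 in the presence of EST.

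Markers of other cell types moved between the groups as well. Summed over the 7 of 8 megakaryocyte markers in the table, levels were 59.2 to 67.7 CPM in Vector, 17.5 to 18.1 in Vector+EST, 53.8 to 71.7 in SREBP2 and 53.9 to 67.5 in SREBP2+EST, with Pf4 the most abundant. The sum of 8 mast cell markers, led by Cpa3, was 16.7 to 17.2 CPM in Vector, 6.55 to 7.79 in Vector+EST, 9.91 to 12.2 in SREBP2 and 8.78 to 10.6 in SREBP2+EST. Both sums were thus lowest in Vector+EST, without overlap with another group, and the mast cell sum was highest in Vector. The 9 macrophage markers summed to 4.81 to 5.55 CPM in Vector and to 2.15 to 4.17 elsewhere, and 6 of 8 lymphocyte markers to 3.85 to 5.86 in all libraries. Of the megakaryocyte list 0 to 1 gene had no count in a group, of the mast cell list 1 to 2, of the macrophage list 1 to 4 and of the lymphocyte list 1 to 2. The part of these markers, and of the fibroblast markers, in the values of the 10 genes was not tested.

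**Figure D1:**
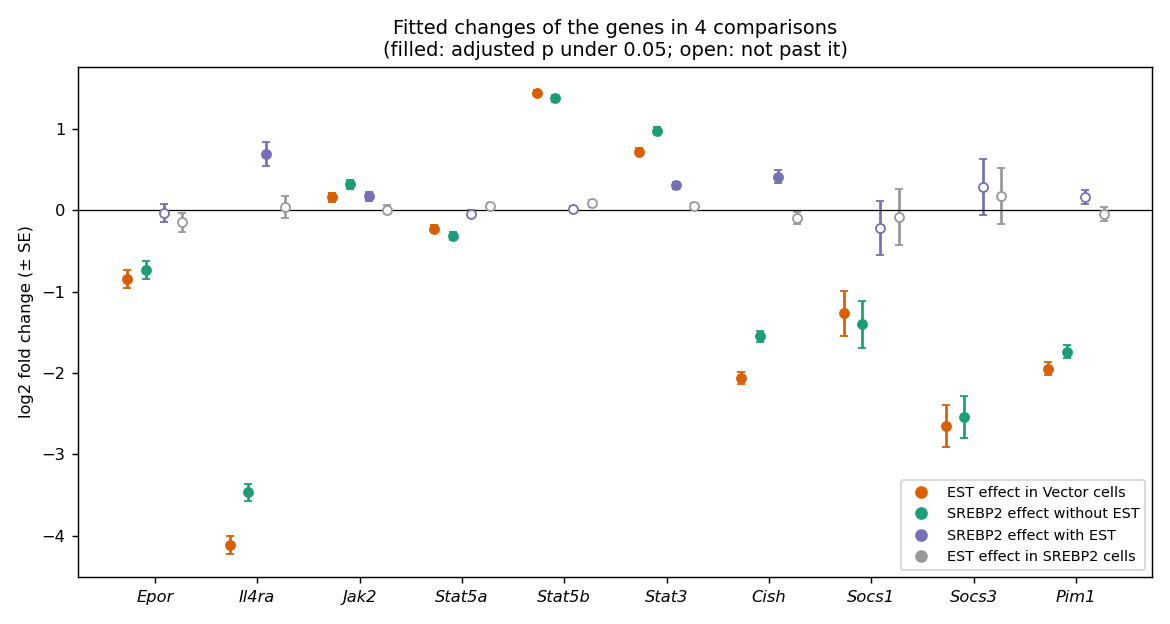
Log2 fold change (vertical axis) of each of the 10 genes (horizontal axis) in 4 comparisons marked by colour, with bars for the standard error. Filled points passed an adjusted p of 0.05 and open points did not. The points of EST in Vector cells run from -4.11 for Il4ra to 1.44 for Stat5b and those of SREBP2 without EST from -3.47 to 1.38, and every point of the EST effect in SREBP2 cells is open and near 0.

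Epor (Entrez 13857, chr9:21958897-21963576) encodes the erythropoietin receptor. It stood at 119.6, 109.5 and 111.4 CPM in the Vector libraries and at 61.19, 57.15 and 70.74 CPM in the Vector+EST libraries. It stood at 52.87, 73.95 and 77.58 CPM in SREBP2 and at 66.57, 55.16 and 63.06 CPM in SREBP2+EST. Every Vector library lay above all 9 others, and the other three groups overlapped. SREBP2 library 1 was the lowest library for this gene, while SREBP2+EST library 1 was the highest of its group. Epor fell 1.80-fold with EST in Vector cells (log2 fold change -0.85 ± 0.11, SE, adjusted p = 3.69e-06) and 1.67-fold with SREBP2 (-0.74 ± 0.11, adjusted p = 1.595e-05). With EST present, SREBP2 gave a difference of -0.03 ± 0.11 (adjusted p = 0.8758). The SREBP2 group and Vector+EST differed by 0.11 ± 0.11 (adjusted p = 0.5345), and Epor was higher in SREBP2 without SREBP2 library 1, by 0.27 (adjusted p = 0.01772), and without library 1 of both SREBP2 groups, by 0.26 (0.00607). The promoter with the GATA motif shown above belongs to this gene. Gata1 reads, which do not separate the fusion from other Gata1 transcripts, averaged 1769 ± 17.1 CPM in Vector, 452.6 ± 28.5 in Vector+EST, 557.1 ± 40.2 in SREBP2 and 519.5 ± 54.7 in SREBP2+EST.

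Il4ra (Entrez 16190, chr7:125552271-125579474), the interleukin-4 receptor chain that IL-4 and IL-13 receptors share, changed most of the 10 genes. Its levels were 62.54, 60.65 and 57.85 CPM in Vector and 3.712, 3.817 and 2.919 CPM in Vector+EST. In SREBP2 they were 4.344, 5.363 and 6.673 CPM, and in SREBP2+EST 5.688, 5.225 and 5.978 CPM. Vector stood far above the rest, and all 6 libraries with SREBP2 lay above all 3 Vector+EST libraries. The fall was 17.3-fold with EST (log2 fold change -4.11 ± 0.11, adjusted p = 2.863e-14) and 11.1-fold with SREBP2 (-3.47 ± 0.10, adjusted p = 5.419e-14). On top of EST, SREBP2 raised Il4ra 1.61-fold (0.69 ± 0.15, adjusted p = 0.003133). The SREBP2 group also stood above Vector+EST directly, by 0.64 ± 0.15 (adjusted p = 0.005022).
Partner chains of Il4ra were measured too. Il2rg, the common γ chain of the type I IL-4 receptor, averaged 27.59 ± 1.26 CPM in Vector, 20.28 ± 1.16 in Vector+EST, 28.87 ± 4.15 in SREBP2 and 27.55 ± 3.94 in SREBP2+EST. It fell with EST by 0.44 on the log2 scale (adjusted p = 0.001454) and did not pass with SREBP2 (0.06, adjusted p = 0.5865). On top of EST, SREBP2 raised Il2rg (0.44, adjusted p = 0.007207) and it stood higher in SREBP2 than in Vector+EST (0.51, adjusted p = 0.002308), the direction of Il4ra in both. Its SREBP2 libraries were at 24.1, 31.64 and 30.87 CPM and its SREBP2+EST libraries at 32.07, 24.83 and 25.74, above every Vector+EST library (19.08 to 21.39). Library 1 of each SREBP2 group thus stood near the level of the other group. These Il2rg calls are not given without those libraries. Il13ra1, the partner chain of the type II receptor, was at 0 counts in 11 libraries and at 0.05096 CPM in Vector library 4, where 3 counts, taken as the limit of detection, would be 0.157 CPM.

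Jak2 (Entrez 16452, chr19:29251803-29313095) encodes the kinase bound to the erythropoietin receptor. It was at 57.77, 61.46 and 67.27 CPM in Vector and at 70.0, 69.96 and 68.3 CPM in Vector+EST. The SREBP2 libraries held 81.31, 78.39 and 73.51 CPM and the SREBP2+EST libraries 79.85, 79.78 and 74.96 CPM. The groups fell in 3 steps without overlap, with Vector lowest, Vector+EST next and the 6 SREBP2 libraries highest. The steps were small. EST raised Jak2 1.12-fold (log2 fold change 0.16 ± 0.06, adjusted p = 0.01799), but the adjusted p was 0.1133 without Vector library 1, 0.1552 without Vector library 4, 0.05722 with a filter of at least 10 counts in every library and 0.1332 with the header number as a block. SREBP2 without EST raised it 1.25-fold (0.32 ± 0.06, adjusted p = 6.877e-05). SREBP2 on top of EST gave 0.17 ± 0.06 (adjusted p = 0.03495). That call was lost in 6 of the 12 fits that left out 1 library, namely Vector 4, each Vector+EST library or SREBP2+EST 1 or 2, with adjusted p from 0.05648 to 0.1158. It was lost too in DESeq2 (0.06399), with RLE size factors (0.05534), with library totals only (0.1139) and with the header number as a block (0.2342). The direct difference of SREBP2 from Vector+EST (0.16 ± 0.06, adjusted p = 0.04222) was lost in 7 of the 12, without Vector 4, any Vector+EST library, SREBP2 1 or 3, or SREBP2+EST 2, with adjusted p from 0.0514 to 0.1149. It was also lost in DESeq2 (0.06515), with RLE size factors (0.05597), with library totals only (0.1273), with only the groups compared (0.05948), with the block (0.1274) and without library 1 of both SREBP2 groups (0.07778), so that 7 of its 20 alternatives kept the call.

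Stat5a, Stat5b and Stat3 encode STAT factors, and they lie side by side on chromosome 11. Stat5b (Entrez 20851, chr11:100780731-100859004) ends 346 bases from Stat5a (Entrez 20850, chr11:100859351-100885169), which ends 1636 bases from Stat3 (Entrez 20848, chr11:100886806-100939594). Stat5b and Stat3 rose in both comparisons with Vector, and Stat5a, which lies between them, fell in both.

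Stat5b rose most. Its levels were 94.56, 97.29 and 95.63 CPM in Vector, 258.4, 255.6 and 267.8 in Vector+EST, 262.4, 245.6 and 238.9 in SREBP2 and 261.1, 265.9 and 265.9 in SREBP2+EST. All 9 libraries outside Vector lay above the Vector libraries, and their 3 groups overlapped one another. The rise was 2.72-fold with EST (log2 fold change 1.44 ± 0.04, adjusted p = 4.422e-14) and 2.60-fold with SREBP2 (1.38 ± 0.04, adjusted p = 4.882e-14). With EST present, SREBP2 added 0.02 ± 0.04 (adjusted p = 0.7568). Between SREBP2 and Vector+EST the difference was -0.07 ± 0.04 (adjusted p = 0.2444, or -0.11 and 0.03412 without SREBP2 library 1, and -0.11 and 0.01424 without library 1 of both SREBP2 groups).

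Stat5a was at 93.53, 86.89 and 92.66 CPM in Vector, 75.36, 78.27 and 80.29 in Vector+EST, 76.02, 72.76 and 70.69 in SREBP2 and 77.08, 74.99 and 75.45 in SREBP2+EST. The Vector libraries were again apart from the rest, here on the high side. Stat5a fell 1.17-fold with EST (log2 fold change -0.22 ± 0.04, adjusted p = 0.0002645) and 1.24-fold with SREBP2 (-0.32 ± 0.04, adjusted p = 7.978e-06), and SREBP2 with EST gave -0.04 ± 0.04 (adjusted p = 0.5719). The direct difference of SREBP2 from Vector+EST was -0.09 ± 0.04 (adjusted p = 0.1575) and passed with library totals only (-0.13, 0.03841) and without library 1 of both SREBP2 groups (-0.12, 0.03758). Part of the reads cannot be assigned to either paralog with certainty. Of the 50-base windows of the Stat5a transcript, 16.4% also occur in another gene, most of them in Stat5b, and 11.8% of those of Stat5b occur in Stat5a, so the split between the paralogs rests partly on the authors' estimated counts.

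Stat5b made up 50.27, 52.82 and 50.79% of the counts of both paralogs in the Vector libraries. The share was 76.97 ± 0.43% in Vector+EST (SD, n = 3), 77.28 ± 0.22% in SREBP2 and 77.7 ± 0.43% in SREBP2+EST. Thus the paralogs took nearly equal counts in Vector and Stat5b took more than 3 of every 4 counts elsewhere. The share was higher by 25.7 percentage points with EST in Vector cells and by 26.0 with SREBP2 (two-sided exact permutation test, p = 0.1 in both, the smallest that 3 libraries against 3 allow). The summed level of both, which windows shared between the paralogs do not touch, went from 186.9 ± 2.32 CPM in Vector to 338.6 ± 8.27 in Vector+EST, 322.1 ± 14.8 in SREBP2 and 340.1 ± 1.71 in SREBP2+EST. The summed counts, an alternative chosen after seeing the data, rose by 0.86 ± 0.04 with EST and by 0.79 ± 0.04 with SREBP2 on the log2 scale (adjusted p = 7.667e-12 and 1.871e-11).

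**Figure D2:**
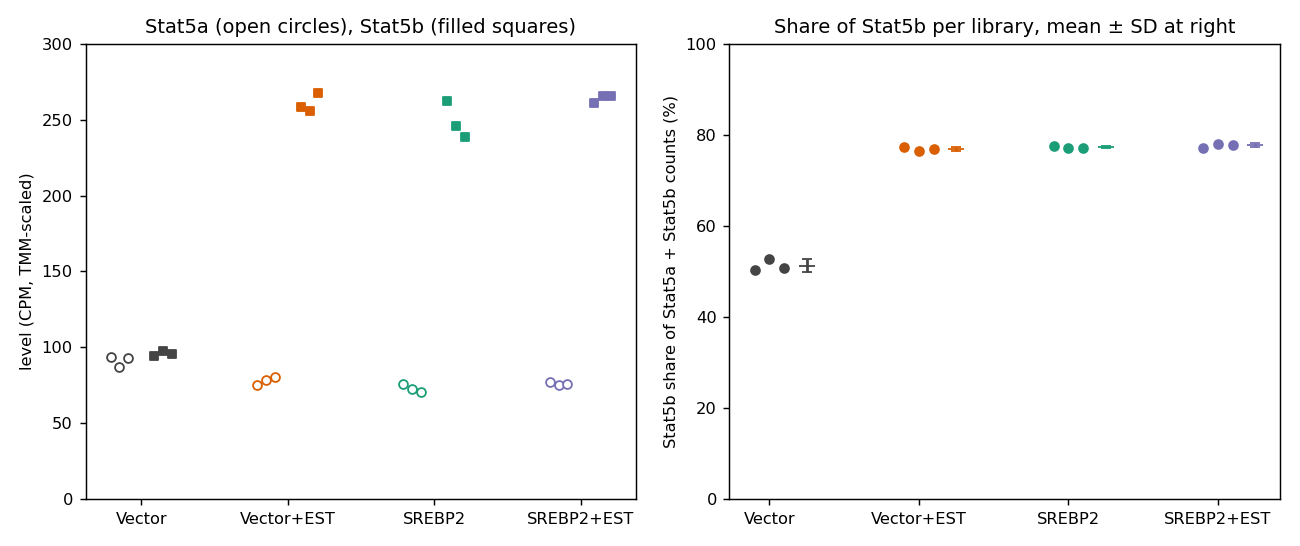
Left, level in CPM (vertical axis) of Stat5a (open circles) and Stat5b (filled squares) in the 3 libraries of each group (horizontal axis), and right, share of Stat5b in the counts of both, in percent, with mean and SD of 3 libraries. The markers lie together near 90 CPM in Vector only, and the share moves from 51.29% in Vector to between 76.97% and 77.7% in the other groups.

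Stat3, the STAT factor of the IL-6 family, was at 72.8, 77.51 and 75.97 CPM in Vector and at 125.2, 122.4 and 125.8 CPM in Vector+EST. It was at 154.6, 147.1 and 144.7 CPM in SREBP2 and at 149.9, 155.3 and 157.4 CPM in SREBP2+EST. The order was Vector, then Vector+EST, then both SREBP2 groups, which overlapped each other and no other group. Stat3 rose 1.65-fold with EST (log2 fold change 0.72 ± 0.04, adjusted p = 1.791e-10) and 1.97-fold with SREBP2 (0.98 ± 0.04, adjusted p = 3.354e-12). SREBP2 also raised it 1.24-fold when EST was present (0.31 ± 0.04, adjusted p = 2.301e-05), and SREBP2 stood above Vector+EST by 0.26 ± 0.04 (adjusted p = 0.0001511).

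Cish, Socs1 and Socs3 encode inhibitors that bind the activated receptor or kinase, and all 3 fell in both comparisons with Vector. Cish (Entrez 12700, chr9:107296659-107302784), known as a feedback gene of STAT5, was at 142.1, 136.3 and 128.8 CPM in Vector and at 32.42, 29.8 and 35.61 CPM in Vector+EST. It stood at 42.7, 45.89 and 50.83 CPM in SREBP2 and at 46.04, 40.62 and 43.89 CPM in SREBP2+EST. Every library with SREBP2 held more Cish than every Vector+EST library, and Vector stood above all. Cish fell 4.16-fold with EST (log2 fold change -2.06 ± 0.07, adjusted p = 5.474e-13) and 2.92-fold with SREBP2 (-1.55 ± 0.07, adjusted p = 8.2e-12). SREBP2 raised it 1.33-fold in the presence of EST (0.42 ± 0.08, adjusted p = 0.0008414), and SREBP2 lay 0.51 ± 0.08 above Vector+EST (adjusted p = 0.0001105). Of its 50-base windows, 15.8% occur in the gene models Gm17041 and Gm17040 too, which the count table does not list.

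Socs3 (Entrez 12702, chr11:117966079-117970336) was low, with 9 to 86 counts a library. It was at 4.156, 4.383 and 3.737 CPM in Vector and at 0.4639, 0.5229 and 0.9552 CPM in Vector+EST. It was at 0.6357, 0.5959 and 0.868 CPM in SREBP2 and at 0.4875, 0.8081 and 1.077 CPM in SREBP2+EST. Vector was apart from the rest, and the other groups overlapped. The fall was 6.29-fold with EST (log2 fold change -2.65 ± 0.26, adjusted p = 1.397e-07) and 5.81-fold with SREBP2 (-2.54 ± 0.26, adjusted p = 1.996e-07). A difference between SREBP2+EST and Vector+EST was not detectable at these counts (0.29 ± 0.35, adjusted p = 0.5979).

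Socs1 (Entrez 12703, chr16:10783808-10785536) was lower still, with 12 to 58 counts a library. Its levels were 2.924, 2.956 and 1.689 CPM in Vector, 0.6186, 1.307 and 1.221 in Vector+EST, 0.9005, 1.084 and 0.868 in SREBP2 and 1.083, 0.8081 and 0.8078 in SREBP2+EST. Vector library 5 was the lowest of its group and still above every library of the other groups. Socs1 fell 2.40-fold with EST (log2 fold change -1.26 ± 0.28, adjusted p = 0.0006802) and 2.64-fold with SREBP2 (-1.40 ± 0.28, adjusted p = 0.000324). Its interaction of 1.19 ± 0.44 (adjusted p = 0.03049) was lost without any of Vector 1, Vector 4, Vector+EST 1, SREBP2 5 and SREBP2+EST 1, where the adjusted p ran from 0.05772 to 0.08786, without library 1 of both SREBP2 groups (0.09653) and with the header number as a block (0.06728).

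Pim1 (Entrez 18712, chr17:29490785-29496111), a survival kinase gene known as a target of STAT5, was at 321.4, 323.4 and 311.5 CPM in Vector and at 77.89, 74.3 and 96.05 CPM in Vector+EST. It was at 84.86, 100.3 and 102.0 CPM in SREBP2 and at 90.14, 90.29 and 97.9 CPM in SREBP2+EST. Vector stood more than 3 times above every other library, and the others overlapped. Pim1 fell 3.85-fold with EST (log2 fold change -1.95 ± 0.08, adjusted p = 4.043e-12) and 3.33-fold with SREBP2 (-1.74 ± 0.08, adjusted p = 1.19e-11). SREBP2 with EST gave 0.17 ± 0.08 (adjusted p = 0.1762). Vector+EST library 5, which had the highest summed fibroblast markers of its group, was the highest of its group for Pim1, and without it SREBP2 raised Pim1 in the presence of EST by 0.29 (adjusted p = 0.008643), while the fall with EST in Vector cells kept its side of the threshold. The direct difference of SREBP2 from Vector+EST (0.21 ± 0.08, adjusted p = 0.08047) passed without that library (0.33, adjusted p = 0.002847), without SREBP2 library 1 (0.29, 0.007393), without library 1 of both SREBP2 groups (0.29, 0.0033) and with no filter on low counts (0.21, 0.03936). The gene model Gm26885, which the count table does not list, shares 10.6% of its 50-base windows.

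**Figure D3:**
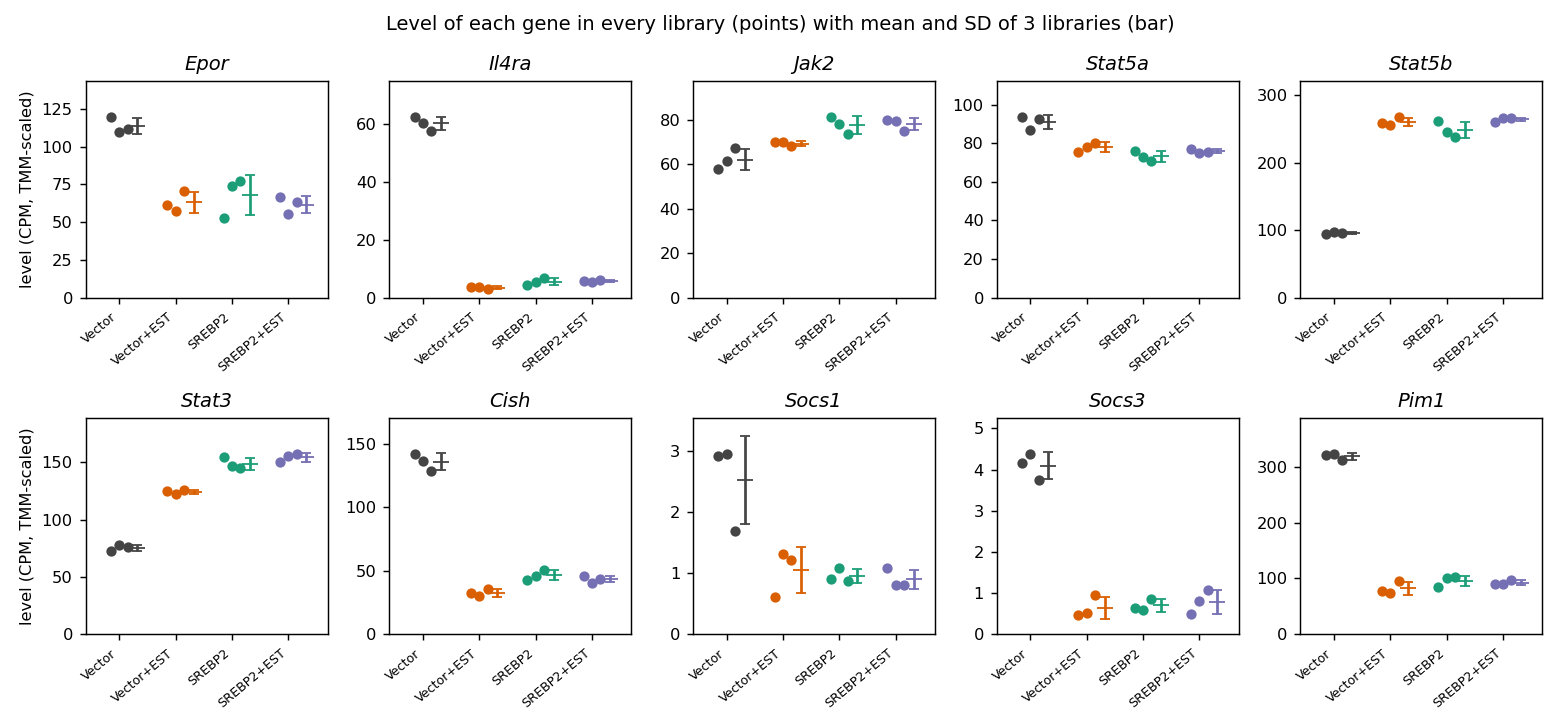
Level in CPM (vertical axis, from 0, own scale in each panel) of each of the 10 genes in every library (points), by group (horizontal axis), with the mean and SD of 3 libraries as a bar at the right of each group. Vector is apart from the other 3 groups in every panel, below them for Stat5b, Stat3 and Jak2 (as in 31.1% of all genes tested) and above them for the other 7 genes (as in 30.8%).

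Levels can be compared between genes only per transcript length, as CPM per kilobase. In Vector the order was Pim1 (118.0 ± 2.36 CPM per kilobase), Epor (64.5 ± 3.04), Cish (47.6 ± 2.34), Stat5a (23.4 ± 0.928), Stat5b (18.4 ± 0.264), Stat3 (16.7 ± 0.532), Jak2 (12.4 ± 0.952), Il4ra (11.5 ± 0.449), Socs3 (1.6 ± 0.128) and Socs1 (0.868 ± 0.248). The libraries of neighbours in this order did not overlap, apart from Jak2 and Il4ra. In the other groups Stat5b came first, at 50.0 ± 1.23 CPM per kilobase in Vector+EST, 47.8 ± 2.33 in SREBP2 and 50.7 ± 0.531 in SREBP2+EST. Behind it stood Epor (35.0 to 38.7), Pim1 (30.7 to 35.5) and Stat3 (27.6 to 34.1), whose libraries overlapped from each to the next in all 3 groups. Cish dropped from the third place to the sixth or seventh, and its libraries overlapped those of Jak2 in both SREBP2 groups. Il4ra, Socs1 and Socs3 filled the last places in each of these 3 groups, with Socs1 and Socs3 overlapping.

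Genes whose log2 levels followed those of a member most closely over the 12 libraries were found among 8553 genes whose log2 CPM averaged 3 or more. For Epor they were Abhd17a (Pearson r = 0.993), Irs2 (0.989), which encodes an adaptor of insulin and cytokine receptors, and Zmiz2 (0.987). For Cish they were Rasl11a (0.997), Klf9 (0.996) and Adgre5 (0.995), and for Il4ra Ctsc (0.996), Txnrd1 and Tsc22d4 (both 0.995). For Socs3, compared with 8554 genes, they were Cebpb (0.982), Cdk10 (0.981) and Fam53a (0.98). The 4 genes had 375, 546, 758 and 188 genes above an r of 0.95, in the order Epor, Cish, Il4ra, Socs3. The 12 points are libraries of 4 groups, which the genes share along with depth and scaling, so the values are a description and carry no test.

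The rest of the pathway was described with lists made by role from textbook knowledge, 134 genes in all beside the 10, of which 124 were in the count table and 95 were tested. Of these 95, EST in Vector cells raised 35 and lowered 39, which is 36.8% and 41.1% beside 35.2% and 35.5% of all genes, with a median log2 fold change of 0.03. SREBP2 without EST raised 41 and lowered 34, 43.2% and 35.8% beside 37.7% and 33.8% (median 0.09). SREBP2 with EST raised 21 and lowered 6, 22.1% and 6.32% beside 14.0% and 7.94% (median 0.09). These counts moved with the processing. The higher count was 10 and the lower 2 with the header number as a block (8.99% and 1.82% of all genes), 16 and 10 with library totals only (11.6% and 15.8%) and 24 and 11 without library 1 of both SREBP2 groups (16.8% and 14.0%). The lower count was 2 or 3 without Vector+EST library 1 or 3 or SREBP2+EST library 2. Where a change of at least 1.5-fold was required as well, 19 rose and 23 fell with EST (beside 16.3% and 15.1% of all genes), 27 and 21 with SREBP2 (19.5% and 13.8%), and 8 and 0 with SREBP2 in the presence of EST (5.02% and 0.268%). EST in SREBP2 cells changed 0 of the 95 with all libraries (edgeR). Without library 1 of both SREBP2 groups, 6.18% of all genes were higher in that comparison and 7.7% lower. The count of the 95 in that setting is not given here. Over all genes tested the medians of these comparisons were 0.01, 0.03, -0.01 and 0.0.

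**Figure D4:**
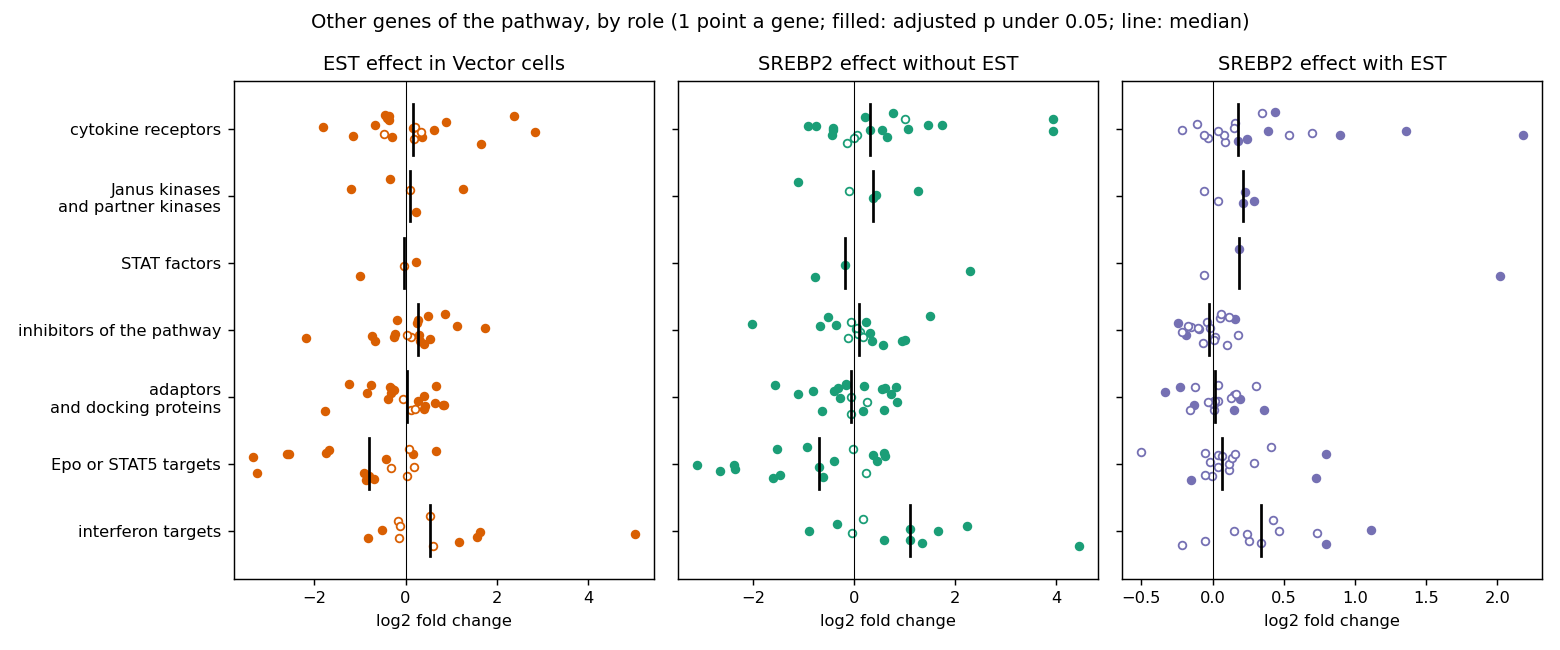
Log2 fold change (horizontal axis, own scale in each panel) of the other pathway genes tested, by role (vertical axis), in 3 comparisons. Each point is a gene, filled where its adjusted p was under 0.05, and the black line is the median of the list. The Epo or STAT5 targets have medians of -0.81 with EST and -0.69 with SREBP2 without EST, and a median of 0.07 with SREBP2 in the presence of EST.

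Among 19 cytokine receptor genes, 7 rose (36.8%, beside 35.2% of all genes) and 8 fell (42.1%, beside 35.5%) with EST in Vector cells. With SREBP2, 10 rose (52.6%, beside 37.7%) and 5 fell (26.3%, beside 33.8%), and with SREBP2 in the presence of EST 7 rose (36.8%, beside 14.0%) and 0 fell (beside 7.94%). Kit, the receptor of stem cell factor, averaged 325.9 ± 8.72 CPM in Vector and 253.2 ± 2.07, 240.9 ± 9.51 and 235.4 ± 15.4 CPM in Vector+EST, SREBP2 and SREBP2+EST. Kit fell by 0.36 with EST and by 0.44 with SREBP2 on the log2 scale (adjusted p = 2.09e-06 and 2.481e-07). Csf2rb, the common β chain of the IL-3, IL-5 and GM-CSF receptors, moved the other way.
Csf2rb was at 68.13, 65.28 and 65.53 CPM in Vector, 491.5, 456.3 and 475.4 in Vector+EST, 787.1, 1137 and 1105 in SREBP2 and 1104, 758.9 and 781.2 in SREBP2+EST. In each SREBP2 group, library 1 was at the level of the other group's libraries. Csf2rb rose 7.15-fold with EST (log2 fold change 2.84 ± 0.15, adjusted p = 5.173e-11) and 15.2-fold with SREBP2 (3.93 ± 0.15, adjusted p = 1.116e-12), and SREBP2 raised it 1.86-fold on top of EST (0.89 ± 0.13, adjusted p = 8.612e-05, and 0.70 without library 1 of both SREBP2 groups). Its near-identical paralog Csf2rb2 averaged 16.81 ± 0.932 CPM in Vector and 87.44 ± 3.88 in Vector+EST. It was at 182.3, 304.9 and 284.2 CPM in SREBP2 and at 296.6, 188.2 and 188.6 in SREBP2+EST, where library 1 of each group again stood at the level of the opposite group, and the split of reads between these paralogs is uncertain. Il12rb1, a chain of the IL-12 and IL-23 receptors, fell with EST by 1.81 on the log2 scale (adjusted p = 1.123e-07) and rose with SREBP2 by 0.56 (adjusted p = 0.001337). With EST present, SREBP2 raised Il12rb1 from 1.554 ± 0.286 to 7.071 ± 0.73 CPM, 4.54-fold (adjusted p = 5.267e-08).

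Of 5 other kinases, 2 rose and 2 fell with EST, where 35.2% and 35.5% of all genes did, and 3 rose and 1 fell with SREBP2, where 37.7% and 33.8% did. With SREBP2 in the presence of EST 3 rose, Jak3 among them (0.29, adjusted p = 0.001328), and 0 fell, where 14.0% and 7.94% did. Jak1, which serves the interferon, IL-4 and IL-6 receptors, averaged 170.4 ± 3.15 CPM in Vector, 405.9 ± 7.57 in Vector+EST, 410.5 ± 28.1 in SREBP2 and 417.2 ± 5.83 in SREBP2+EST. It rose 2.38-fold with EST (adjusted p = 5.557e-13) and 2.41-fold with SREBP2 (adjusted p = 3.398e-13), more than Jak2 did in fitted fold. Tyk2 rose 1.17-fold and 1.35-fold (adjusted p = 0.0009924 and 9.346e-07). Jak3, which binds the common γ chain, fell with EST by 0.34 on the log2 scale (adjusted p = 5.832e-05), and with SREBP2 it gave -0.11 (adjusted p = 0.08629). That difference passed under 6 of 20 alternatives, namely without Vector library 4 (-0.18, adjusted p = 0.02483), without SREBP2 library 1 (-0.16, 0.02051), without library 1 of both SREBP2 groups (-0.20, 0.002749), with RLE size factors (-0.14, 0.03785), with library totals only (-0.17, 0.01594) and with at least 10 counts in every library (-0.14, 0.03617). Btk, a kinase of the Tec family that also acts in erythroid signalling, went from 103.9 ± 0.401 CPM in Vector to 45.41 ± 2.02 in Vector+EST and 48.37 ± 5.46 in SREBP2 (adjusted p = 1.65e-08 and 3.785e-08).

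Stat2, a factor of the type I interferon response, rose mainly with SREBP2. It was at 31.81, 33.02 and 32.05 CPM in Vector, 38.25, 36.5 and 39.48 in Vector+EST, 159.2, 157.8 and 157.1 in SREBP2 and 152.1, 157.1 and 153.8 in SREBP2+EST. No library with SREBP2 overlapped one without. The rise was 1.18-fold with EST (log2 fold change 0.24 ± 0.04, adjusted p = 0.0001794) and 4.89-fold with SREBP2 (2.29 ± 0.04, adjusted p = 2.436e-16), and SREBP2 raised it 4.05-fold with EST present (2.02 ± 0.04, adjusted p = 2.096e-15). SREBP2 and Vector+EST differed directly by 2.05 ± 0.04 (adjusted p = 1.687e-15). Stat6, the factor downstream of the IL-4 receptor, averaged 120.5 ± 1.36 CPM in Vector and fell to 60.49 ± 2.35 with EST and to 70.44 ± 3.3 with SREBP2 (adjusted p = 1.412e-11 and 2.315e-10), the same direction as Il4ra.

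Interferon target genes were 11 in number. With EST 4 rose (36.4%, beside 35.2% of all genes) and 2 fell (18.2%, beside 35.5%). With SREBP2 7 rose (63.6%, beside 37.7%) and 2 fell (18.2%, beside 33.8%), and with SREBP2 in the presence of EST 2 rose (18.2%, beside 14.0%) and 0 fell (beside 7.94%). Usp18, a brake on interferon receptor signalling, stood at 0.2565, 0.2038 and 0.1536 CPM in Vector and at 6.031, 7.477 and 7.005 CPM in Vector+EST. It averaged 4.627 ± 0.228 CPM in SREBP2 and 5.881 ± 0.375 in SREBP2+EST. Its log2 fold change was 5.02 ± 0.21 with EST and 4.46 ± 0.22 with SREBP2 (adjusted p = 3.885e-12 and 3.312e-11), against a Vector group close to the 3 counts taken as the limit of detection. Ifi35 fell by 0.83 with EST and 0.90 with SREBP2 on the log2 scale (adjusted p = 1.262e-10 and 4.207e-11), while Irf1 rose with SREBP2 (0.59, adjusted p = 0.002737) and again with SREBP2 in the presence of EST (0.80, adjusted p = 0.001562).

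Of 18 other inhibitors, 10 rose (55.6%, beside 35.2% of all genes) and 6 fell (33.3%, beside 35.5%) with EST, and 7 rose (38.9%, beside 37.7%) and 4 fell (22.2%, beside 33.8%) with SREBP2. Their median log2 fold changes were 0.26 and 0.10, beside 0.01 and 0.03 for all genes. Ptpn6, the phosphatase SHP-1 that turns off the erythropoietin receptor and JAK2, was at 110.0, 108.6 and 110.7 CPM in Vector, 24.49, 22.64 and 25.47 in Vector+EST, 23.36, 27.36 and 30.7 in SREBP2 and 28.76, 25.91 and 27.63 in SREBP2+EST. It fell by 2.18 and 2.02 on the log2 scale with EST and with SREBP2 (adjusted p = 3.682e-13 and 5.676e-13). Socs7 rose from 40.29 ± 2.31 CPM in Vector to 134.8 ± 2.91 in Vector+EST and 114.6 ± 10.6 in SREBP2 (adjusted p = 7.158e-13 and 3.274e-12), and was lower with SREBP2 than without when EST was present (-0.24, adjusted p = 0.006837).

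Of 20 adaptors and docking proteins, 8 rose and 9 fell with EST and likewise 8 and 9 with SREBP2, beside 35.2% and 35.5% of all genes with EST and 37.7% and 33.8% with SREBP2. Vav1, a guanine nucleotide exchange factor that acts below cytokine receptors, went from 105.9 ± 4.6 CPM in Vector to 31.3 ± 2.15 in Vector+EST and 35.66 ± 1.76 in SREBP2 (adjusted p = 1.945e-13 and 4.38e-13). Sos2, an exchange factor for RAS, went from 53.48 ± 4.04 CPM to 95.41 ± 2.05 and 95.75 ± 5.67 CPM (adjusted p = 1.404e-09 and 1.19e-09). Inpp5d, the lipid phosphatase SHIP1, rose with EST by 0.40, with SREBP2 by 0.83 and with SREBP2 on top of EST by 0.36 on the log2 scale (adjusted p = 1.532e-06, 2.096e-10 and 3.049e-05). Stam was the adaptor that fell most with SREBP2 in the presence of EST (-0.34, adjusted p = 0.0004064), after a rise with either treatment alone (0.82 and 0.59, adjusted p = 3.13e-09 and 1.889e-07).

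Of 17 genes known as Epo or STAT5 targets, beside Pim1, 2 rose (11.8%, beside 35.2% of all genes) and 11 fell (64.7%, beside 35.5%) with EST, with a median of -0.81. With SREBP2, 4 rose (23.5%, beside 37.7%) and 11 fell (64.7%, beside 33.8%), with a median of -0.69. With SREBP2 in the presence of EST, 2 rose (11.8%, beside 14.0%) and 1 fell (5.88%, beside 7.94%). Trib3, a pseudokinase gene, was at 17.65, 18.96 and 16.43 CPM in Vector, 1.546, 2.039 and 1.645 in Vector+EST, 2.543, 2.438 and 3.418 in SREBP2 and 3.358, 3.124 and 2.639 in SREBP2+EST. It fell by 3.34 with EST and by 2.66 with SREBP2 on the log2 scale (adjusted p = 3.548e-12 and 1.76e-11), and rose with SREBP2 in the presence of EST (0.80, adjusted p = 0.004161, but 0.06035 with the header number as a block). Osm, the cytokine oncostatin M, fell from 30.29 ± 1.47 CPM in Vector to 5.162 ± 0.277 in Vector+EST and 5.798 ± 0.683 in SREBP2 (adjusted p = 7.945e-13 and 1.116e-12).
Tfrc, the transferrin receptor, rose most of the list, from 526.6 ± 23.6 CPM in Vector to 838.2 ± 29.6 in Vector+EST and 806.5 ± 13.8 in SREBP2 (adjusted p = 1.366e-10 and 3.537e-10). Ireb2, an iron-regulatory protein that keeps Tfrc mRNA stable, averaged 92.43 ± 3.93, 97.78 ± 4.99 and 91.39 ± 1.55 CPM in these groups, which did not pass (adjusted p = 0.1342 and 0.771), and was lower with SREBP2 in the presence of EST (-0.15, adjusted p = 0.02816). That call was lost without Vector+EST library 1 or 3 or SREBP2+EST library 2 or 5, with adjusted p from 0.09228 to 0.1326, and with the block (0.2358).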

How the data were processed

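RNA was measured by sequencing oligo(dT)-selected mRNA of 12 libraries as 50-base single-end reads. The authors deposited estimated counts per gene, not normalized, of which 66.5% are whole numbers. The submitters' processing notes name HISAT2 2.0.4, Bowtie2 2.2.5, RSEM 1.2.12, DESeq2 1.4.5 and the build GRCm38.p6, without their roles, and whether counting used strand is not given in the sources used here. A second deposited table holds the authors' own fold changes and p-values and was not used. Groups came from the sample titles, and columns were matched to groups by their header names, which carry other numbers than the titles.

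Estimated counts were rounded. Genes passing filterByExpr (11177) were scaled with TMM factors (trimmed mean of M values) and tested in edgeR 4.0.16 (R 4.3.3) by the quasi-likelihood F-test, with one mean per group over all 12 libraries and Benjamini-Hochberg adjustment over all genes tested (threshold 0.05). SE is the log2 fold change over the square root of F. Levels are CPM, with 3 counts (about 0.16 CPM) as the limit of detection, and log2 CPM for correlations had a prior count of 2. The procedure was run on simulated counts in which 200 of 11177 genes differed in Vector+EST. It recovered 93% of them, with 11 false calls among 197. Far fewer genes were changed there than were called here, so scaling under so broad a shift was not tested. Alternatives were DESeq2 1.42.0, other scalings and filters, only the groups compared, the header number as a block, and libraries left out.

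The 10 genes and the lists were chosen with earlier results of these data known. Other genes were named by rule: from each pathway list, the largest rise and fall past the threshold in 3 comparisons among genes whose log2 CPM averaged 2 or more, and the 3 genes closest to each of 4 members. Close partners of the members (Jak1, Jak3, Tyk2, Stat6, Il2rg, Il13ra1, Kit and Osm), Srebf2 and Gata1 were added whatever their values. Gene positions and promoters are RefSeq's (GRCm38.p6). Transcript lengths and shared 50-base windows come from GENCODE M21 transcripts of the same assembly.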

Additional observations from a re-analysis of the deposited data

Results flagged for a closer look

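For 9 of the 10 genes the EST effect in SREBP2 cells differed from that in Vector cells by a test of the difference itself (edgeR interaction term), 7 of them with a positive difference, beside 29.8% of all genes tested, and 2 with a negative one, beside 29.2%. As log2 differences, with the EST effect in SREBP2 cells minus that in Vector cells, the values were 4.16 for Il4ra (adjusted p = 2.906e-11), 2.83 for Socs3 (4.392e-05), 1.96 for Cish (2.04e-10), 1.90 for Pim1 (1.021e-09), 1.19 for Socs1 (0.03049), 0.70 for Epor (0.001221) and 0.28 for Stat5a (0.00131). They were -1.36 for Stat5b (1.293e-11) and -0.67 for Stat3 (5.3e-08). The EST effects in SREBP2 cells that enter these differences ran from -0.14 (Epor) to 0.18 (Socs3) and did not pass the test for any of the 10 genes, while those in Vector cells ran from -4.11 to 1.44. Without library 1 of both SREBP2 groups the difference for Epor was 0.53, and that for Socs1 did not pass.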

How the results depend on the processing

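All 10 genes kept direction and side of the threshold for SREBP2 without EST under every alternative run, and for EST in Vector cells under all but 4, each for Jak2. For SREBP2 with EST 184 of 199 alternatives kept both, for EST in SREBP2 cells 186, for the interaction 191 and for SREBP2 against Vector+EST 172. Socs3 gave no value with at least 10 counts in every library. Signs that changed were those of small differences that did not pass. With SREBP2 in the presence of EST, Stat5b stood at -0.024 under library totals and Epor between -0.099 and 0.057 when 1 library was left out. With EST in SREBP2 cells, Il4ra stood at -0.10 without both libraries 1, and leaving out 1 library gave -0.030 to 0.042 for Jak2, -0.23 to 0.024 for Socs1, -0.11 to 0.43 for Socs3, -0.13 to 0.0037 for Pim1 and -0.10 to 0.22 for Il4ra. For SREBP2 against Vector+EST it gave -0.41 to 0.052 for Socs1 and -0.077 to 0.50 for Socs3. Among the other genes named, Il2rg with SREBP2 without EST ran from -0.0067 to 0.18 when 1 library was left out. Without both libraries 1, EST in SREBP2 cells called 1 of the 10 higher and 1 lower (beside 6.18% and 7.7% of all genes), and SREBP2 against Vector+EST called 2 lower (15.7%), where library totals called 1 (16.7%) and leaving out 1 library 0 to 1 (5.22% to 12.1%). Among the 95 other pathway genes, requiring 1.5-fold left 19 higher and 23 lower with EST (beside 16.3% and 15.1% of all genes), 27 and 21 with SREBP2 (19.5% and 13.8%), and 8 and 0 with SREBP2 in the presence of EST (5.02% and 0.268%). In the last comparison, without that requirement, the lower count was 10 under library totals (15.8% of all genes), 11 without both libraries 1 (14.0%), and 2 to 8 with 1 library left out (4.5% to 11.4%). The cause of these changes was not tested. Under library totals that comparison called 1292 genes higher and 1768 lower in place of 1560 and 888, and SREBP2 against Vector+EST 1365 and 1868 in place of 1615 and 1002.

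The header numbers did not pair the libraries: over 13 pairs with the same number, deviations from the group means correlated between -0.174 and 0.067. With the number as a replicate block, the calls went to 3503 higher and 3578 lower for EST in Vector cells, 1005 and 203 for SREBP2 with EST, and 0 for EST in SREBP2 cells, and to 10 higher and 2 lower pathway genes for SREBP2 with EST (beside 8.99% and 1.82% of all genes). The block lost the calls of Jak2 for EST in Vector cells (adjusted p = 0.1332), for SREBP2 with EST (0.2342) and for SREBP2 against Vector+EST (0.1274), the interaction of Socs1 (0.06728), and the calls of Trib3 (0.06035) and Ireb2 (0.2358) for SREBP2 with EST. Among the other calls checked under the block, none changed. Not checked were those of Il2rg and Jak3 for SREBP2 with EST, of Il2rg for SREBP2 against Vector+EST, and of the summed Stat5 counts. The block turned the sign of Epor for SREBP2 with EST (0.044) and of Jak2 (-0.0004) and Socs1 (0.13) for EST in SREBP2 cells, none of which passed under the block.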
